A study of Mus musculus with 24 samples.

Results

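The values compared here were those of 7 EMT-like areas of primary mammary tumors against 2 samples of normal mammary gland (NMG), chosen by their sample titles out of 24 samples in all. Of the 566 mouse miRNA probes on the panel, 550 were tested, since the others were never above 0 in any sample. The tumors grew from JygMC(A)-GFP/Luc cells, a mouse mammary tumor line that carries luciferase and GFP reporters, injected into the fourth mammary fat pad of female BALB/c nude mice aged 6 to 9 weeks. Primary tumors were removed 20 to 30 days after injection, and areas were cut from tissue sections by laser capture. EMT stands for epithelial-mesenchymal transition, and EMT-like areas are those in which the tumor cells are spindle-shaped, whereas the carcinoma areas (n = 5), used here for comparison, have the look of an adenocarcinoma. The EMT-like samples came from 7 animals or pools of animals, and the label of replicate 1 names 3 animals. Of the EMT-like samples, 4 have a carcinoma sample from the same source, and 3 (replicates 5, 6 and 7) have none. The tumor animals carry labels of 2 series, here called lettered and numbered. EMT-like replicates 1 and 2 and carcinoma replicates 1, 2 and 3 are lettered. EMT-like replicates 3 to 7 and carcinoma replicates 4 and 5 are numbered. Both NMG samples came from animals of the same strain, share their animal numbers with the 2 normal lung samples, and have labels that do not say whether those animals carried tumors. Nude mice lack a functional thymus, so mature T cells are scarce in all groups. All tumors descend from 1 cell line, so the animals differ in the host and the graft and not in the origin of the tumor. The labels mark the NMG and normal lung lanes as new samples and no tumor lane, so a difference between tumor and NMG cannot be told apart from a difference between those sets of lanes.

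miRNAs are RNAs of about the length of the sequences printed below that guide the silencing complex to messenger RNAs, mostly by pairing of the seed, bases 2 to 8 of the mature strand, so miRNAs with one seed form a family that shares most of its targets. In the mammary gland the miR-200 family, miR-203 and miR-205 are made in epithelial cells, where the miR-200 family holds the transcription factors Zeb1 and Zeb2 in check and loss of the family is a known feature of EMT. Many other miRNAs belong to cells that lie around the ducts, such as endothelium, smooth muscle, blood cells and fat.

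The mature sequences shown are those of the miRNAs called in EMT-like areas and not in carcinoma areas, of the relatives that share their seeds, and of the leading miRNAs lost or gained. They come from RefSeq (GRCm38.p6), in which 290 of the 566 probes were matched, 94 of them through the arm that an older name stands for. Sequences run 5′ to 3′ and capitals mark the seed.
miR-200a: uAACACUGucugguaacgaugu
miR-141: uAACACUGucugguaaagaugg
miR-200b: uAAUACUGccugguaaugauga
miR-200c: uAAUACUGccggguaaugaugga
miR-429: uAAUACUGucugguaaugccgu
miR-203: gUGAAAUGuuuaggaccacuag
miR-205: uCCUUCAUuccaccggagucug
miR-196b: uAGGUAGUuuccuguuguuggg
miR-196a: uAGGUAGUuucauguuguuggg
miR-107: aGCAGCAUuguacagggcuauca
miR-103: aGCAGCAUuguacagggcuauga
miR-15a: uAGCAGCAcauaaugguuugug
miR-16: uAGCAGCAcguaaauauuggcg
miR-322: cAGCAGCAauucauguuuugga
miR-340-5p: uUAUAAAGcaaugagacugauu
miR-191: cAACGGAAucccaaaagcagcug
miR-425: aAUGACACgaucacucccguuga
let-7g: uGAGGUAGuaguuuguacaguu
miR-210: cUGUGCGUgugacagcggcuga
miR-574-5p: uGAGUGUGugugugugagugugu
miR-323-3p: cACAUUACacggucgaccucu
miR-451: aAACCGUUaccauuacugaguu
miR-9: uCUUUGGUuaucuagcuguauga
miR-31: aGGCAAGAugcuggcauagcug

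miR-200a (chr4:156054911-156054932), miR-200b (chr4:156055685-156055706) and miR-429 (chr4:156053916-156053937) lie together on the minus strand, and miR-141 (chr6:124717917-124717938) and miR-200c (chr6:124718324-124718346) form a second cluster, also on the minus strand. miR-191 (chr9:108568325-108568347) and miR-425 (chr9:108568789-108568811) are neighbours on the plus strand. miR-203 (chr12:112130927-112130948) is on the plus strand, and miR-205 (chr1:193507503-193507524) is on the minus strand. Where 2 probes target nearly the same sequence, their values may not be independent, and cross-hybridisation was not tested: miR-103 and miR-107 differ at 1 base, miR-196a and miR-196b at 1 base, miR-29a and miR-29c at 1 base and miR-200a and miR-141 at 2 bases. The seed AACACUG is shared by miR-200a and miR-141, and AAUACUG by miR-200b, miR-200c and miR-429.

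All values below are counts with the background subtracted and then scaled between lanes, and a log2 fold change is the difference of group means of log2(scaled value + 1), given with its standard error. A miRNA is called where limma, fitted on all 24 samples, gave an adjusted p under 0.05. Of the 550 mouse miRNAs tested, 26 (4.73%) were called higher and 117 (21.3%) lower in EMT-like areas than in NMG. The median log2 fold change of all tested miRNAs was -0.30. All 7 EMT-like samples lay below both NMG samples for 143 miRNAs (26.0%) and above both for 53 (9.64%). Of the 117 called lower, 87 were above the detection limit of the lane in both NMG samples. Among these 87, 48 were above the limit in every EMT-like sample, 17 in 1 to 6 of them and 22 in none. A further 11 passed the limit in 1 NMG sample only, and 19 lay under the limit in all 9 samples, so their calls compare values within the background. Of the 26 called higher, 25 were above the limit in all 7 EMT-like samples and 21 in both NMG samples as well. The lanes differed in depth, since the mouse miRNA values summed to 110552 to 183539 in EMT-like areas and to 525225 and 559660 in NMG, and the scaled detection limit was 9.42 to 13.0 in EMT-like areas and 3.54 to 3.86 in NMG. In these areas, fewer cells of a type and less RNA per cell cannot be told apart.

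Among the largest losses were those of red cell miRNAs. miR-144 and miR-451, processed from one transcript in red cell precursors (chr11:78073047-78073207, plus strand), and miR-486, also abundant in red cells, were all called lower, which is 3 of 3 of the erythroid list, with a median log2 fold change of -5.79. The scaled value of miR-451 was 7475 and 7401 in NMG and 72.0, 156 and 252 (lowest, median and highest) in EMT-like areas. No EMT-like sample came near either NMG sample, and the log2 fold change was -5.79 ± 0.38 (adjusted p = 2.62e-10). miR-144 was 496 and 973 in NMG, and only 1 EMT-like sample was above the detection limit. miR-486 was 148 and 134 in NMG and 18.02 to 39.2 in EMT-like areas, with an adjusted p of 0.00273 (a call lost when lanes were scaled by the miRNA total or by the 100 most abundant miRNAs).

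The immune-cell list was split in direction, with 3 of 7 called lower, 1 higher and 3 not called. miR-150, a miRNA of mature lymphocytes that restrains Myb, was 2029 and 678 in NMG and 14.3, 45.2 and 65.7 (lowest, median and highest) in EMT-like areas. The NMG samples differed from each other but both stood far above every EMT-like sample (log2 fold change -4.92 ± 0.48, adjusted p = 9.62e-08). miR-142-3p, found throughout the blood lineage, was 2780 and 1294 in NMG and 88.7 to 257 in EMT-like areas (adjusted p = 2.97e-05). The other strand, miR-142-5p, did not follow it. It was not called, and after scaling all 7 EMT-like samples lay above both NMG samples. The third called lower, miR-223 of the myeloid lineage, had a log2 fold change of -2.31 (adjusted p = 0.000995). miR-155, which is induced in activated lymphocytes and macrophages, was higher, at 289 to 416 in EMT-like areas against 107.1 and 128.1 in NMG (log2 fold change 1.60 ± 0.29, adjusted p = 0.000274). Its call was lost under no scaling and under scaling by the 4 mRNA control probes.

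miRNAs of vessels, smooth muscle, connective tissue and fat were lower as well. The summed level of the 2 endothelial markers, miR-126-3p and miR-126-5p, both cut from the hairpin in an intron of Egfl7, was 10970 and 17650 in NMG and 1314 to 2626 in EMT-like areas, and both were called lower. miR-126-3p itself was 16160 and 9882 in NMG against 1190, 2144 and 2457 (lowest, median and highest) in EMT-like areas, which do not overlap (log2 fold change -2.68 ± 0.36, adjusted p = 7.74e-06). The smooth muscle pair miR-143 and miR-145 summed to 6039 and 7591 in NMG and 766 to 1328 in EMT-like areas. Both were called lower, miR-145 by -2.37 ± 0.35 and miR-143 by -3.84 ± 0.92, though the call of miR-143 was lost without NMG replicate 2 (adjusted p = 0.0858 at its highest over the alternatives).

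The mesenchymal list did not rise above NMG in the spindle-shaped areas. miR-199a-3p and miR-199a-5p, made from transcripts antisense to dynamin genes in connective tissue cells, were lower than in NMG, and miR-214, from one of the same transcripts, was not called. The list summed to 8645 and 9125 in NMG, 1093 to 2844 in EMT-like areas and 882 to 1885 in carcinoma areas. For miR-199a-5p the values were 2423 and 3285 in NMG and 223, 354 and 778 (lowest, median and highest) in EMT-like areas (log2 fold change -3.01 ± 0.40, adjusted p = 6.83e-06). miR-214 was 22.7 to 41.1 in EMT-like areas and 36.7 and 42.0 in NMG, so the groups overlap. Against carcinoma areas, the log2 fold changes of miR-199a-3p, miR-199a-5p and miR-214 were 0.27, 0.18 and 1.35. None was called (limma, adjusted p of 0.752, 0.862 and 0.338). miR-214 was called there with the detection limit subtracted as a higher background (adjusted p = 0.0422). The panel holds no messenger RNA of an EMT marker, so the label of the areas rests on their histology.

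Of the 4 adipose-linked miRNAs 3 were called lower. miR-193b, which with miR-365 is known in brown fat, was not called, at 53.5 to 94.1 in EMT-like areas against 115.0 and 78.7 in NMG (-0.44 ± 0.33, adjusted p = 0.398). The 3 called, miR-193 (the 3p arm of miR-193a), miR-365 and miR-378, the last from an intron of the coactivator gene Ppargc1b, summed to 1589 and 1679 in NMG and 120 to 285 in EMT-like areas. miR-193 was 33.8 and 39.0 in NMG and under the detection limit in all 7 EMT-like samples, which makes it at least 3.03-fold lower. miR-378 was 819 and 624 in NMG and 67.9 to 97.1 in EMT-like areas (log2 fold change -3.11 ± 0.34, adjusted p = 5.13e-07). Of 7 striated muscle miRNAs, 2 (28.6%) were called lower, against 21.3% of all miRNAs, and 0 higher. Of these 2, miR-208a was under the detection limit in all EMT-like samples and above it in 1 NMG sample only. miR-1 was under the limit in all EMT-like samples and stood at 834 in NMG replicate 1 but 30.8 in NMG replicate 2, so its loss was at least 67.8-fold against the first but at least 2.58-fold against the second. miR-133a, its partner in muscle, was 168 and 6.68 in the same samples and was not called in EMT-like areas. miR-206, of skeletal muscle, went the other way, at 18.3 to 48.3 in EMT-like areas against 16.48 and 4.83 in NMG, and was not called (1.51 ± 0.69, adjusted p = 0.117), though it was under scaling by the miRNA total or by the 100 most abundant miRNAs. The 2 NMG samples thus differ widely in muscle miRNAs. How much of any loss above follows the make-up of the cut tissue was not tested.

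**Figure D1:**
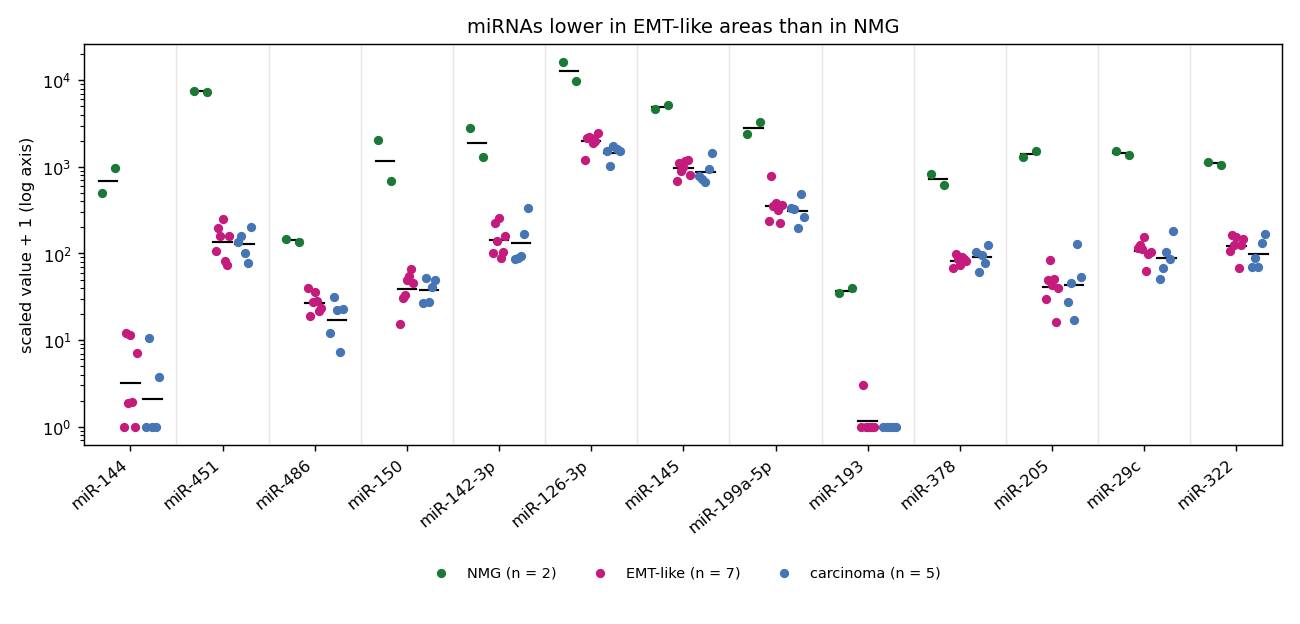
Scaled value + 1 on a log axis for 13 miRNAs called lower in EMT-like areas, with 1 point per sample for NMG (n = 2), EMT-like (n = 7) and carcinoma areas (n = 5) and a black line at the mean of the log values. For all 13 the EMT-like points lie below both NMG points, as with miR-451 at 72.0 to 252 against 7475 and 7401.

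Among the epithelial miRNAs, miR-205 stood apart from the rest. miR-205, a miRNA of basal and myoepithelial cells that also restrains Zeb1 and Zeb2, was 1316 and 1505 in NMG and 15.0, 42.3 and 83.8 (lowest, median and highest) in EMT-like areas. Every EMT-like sample was far below NMG (log2 fold change -5.12 ± 0.74, adjusted p = 2.03e-05). It was as low in carcinoma areas, at 16.3 to 129, where the log2 fold change against the same NMG samples was -5.02 ± 0.78 (adjusted p = 3.74e-05), and the areas did not differ in the direct test (-0.10 ± 0.54, adjusted p = 1.0).

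The miR-200 family was uneven between EMT-like samples, and only its AACACUG members were called against NMG. miR-200a was 187 and 399 in NMG and, in EMT-like replicates 1 to 7, 31.5, 136, 76.8, 43.3, 3.62, 1.58 and 0. All EMT-like samples lay below NMG, with replicates 5, 6 and 7 under the detection limit (log2 fold change -4.18 ± 1.37, adjusted p = 0.027, lost under 6 of the alternatives, with either NMG sample left out among them). miR-141 was also under the limit in replicates 5, 6 and 7, at 24.9, 45.1, 28.8, 27.9, 3.62, 3.17 and 4.52 against 123.2 and 222.4 in NMG (-3.57 ± 1.03, adjusted p = 0.0125, also lost without either NMG sample).

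The AAUACUG members overlapped with NMG. miR-200c was 374 and 478 in NMG and 120, 467, 308, 62.5, 6.34, 16.6 and 25.6 in EMT-like replicates 1 to 7, so replicate 2 reached the NMG level. It was not called (-2.76 ± 1.15, adjusted p = 0.0861), nor were miR-200b (-2.34 ± 0.93, adjusted p = 0.0708) and miR-429 (-4.46 ± 1.84, adjusted p = 0.0828). miR-429 was 0 in replicates 5, 6 and 7 and 77.9 to 450.5 in the other 4. In carcinoma areas the family ran up to 1647 for miR-200b, and no member was called there against NMG. Before scaling, miR-200b was 1485, 669 and 1561 in carcinoma replicates 1, 2 and 3, of the lettered series. It was 197 and 210 in carcinoma replicates 4 and 5, of the numbered series, to which EMT-like replicates 3 to 7 belong. Area and series of animals thus cannot be fully told apart. The difference between the areas was tested directly and did not pass for any of the 5 members (adjusted p 0.0617 to 0.202, unadjusted p under 0.05 for 5 of 5). Without EMT-like replicate 2, miR-200a, miR-200b, miR-200c and miR-429 were called lower in EMT-like than in carcinoma areas, with adjusted p of 0.0316, 0.0132, 0.0145 and 0.0277. Over the 28 alternatives those 4 were called in 3, 7, 6 and 3 and miR-141 in 1, and their highest adjusted p were 0.676 to 1.0. Within the 4 sources that gave both areas, each of the 5 members was lower in the EMT-like area of 3 of 4.

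miR-203, which limits the self-renewal of epithelial cells, was 183 and 292 in NMG and 6.33, 26.8 and 117 (lowest, median and highest) in EMT-like areas. The groups do not overlap (-3.22 ± 0.85, adjusted p = 0.00686), but the call was lost without NMG replicate 2. The whole epithelial list of 7 summed to 59.4 to 1758 in EMT-like areas, 930 to 5385 in carcinoma areas and 2925 and 4061 in NMG. By contrast miR-183, from the sensory organ cluster that also holds miR-96 and miR-182, was higher than in NMG (56.1 to 184 against 30.5 and 30.4, 1.77 ± 0.57, adjusted p = 0.0247), a call lost without either NMG sample. The call of miR-183 was also lost under no scaling, under scaling by the 4 mRNA controls and with the detection limit subtracted as a higher background. It was lost with the lettered animals alone as well. miR-182 was 9.80 to 30.03 against 2.89 and 5.94 and was not called. miR-96 was not called either (0.26), and its EMT-like values overlapped with NMG.

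**Figure D2:**
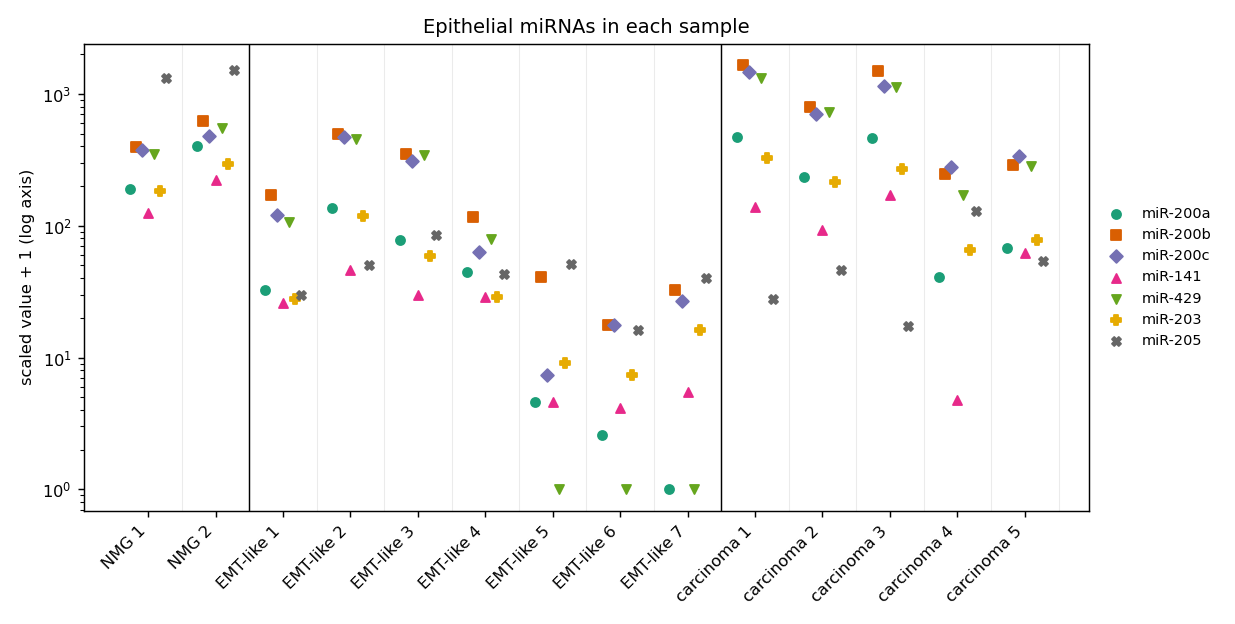
Scaled value + 1 on a log axis for 7 epithelial miRNAs, with 1 column per sample and 1 marker shape and colour per miRNA. EMT-like replicates 5, 6 and 7 hold the lowest miR-200 values (miR-429 at 0), EMT-like replicate 2 reaches the NMG range for miR-200c, and miR-205 is low in all tumor samples.

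Several families with shared seeds were lower as a block. All 3 members of the miR-29 family (seed AGCACCA), which restrain collagen genes, were called lower with a median of -2.17. Among them miR-29c was 1526 and 1368 in NMG and 61.6, 111 and 156 (lowest, median and highest) in EMT-like areas, without overlap (-3.75 ± 0.41, adjusted p = 5.1e-07). All 5 members of the miR-30 family, known to restrain Snai1, were called lower with a median of -2.02. miR-30a was 911 and 856 in NMG and 157 to 272 in EMT-like areas (-2.02 ± 0.33, adjusted p = 6.14e-05). Under scaling by the miRNA total 3 of the 5 remained called, without miR-30b and miR-30e. The calls of miR-29a, miR-29b and miR-30e were lost without either NMG sample and under scaling by the miRNA total or the 100 most abundant miRNAs, which move the median of all miRNAs up by 0.30.

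Of the miR-15/16 family (seed AGCAGCA in 6 of its 7 probes), which restrains cyclins and Bcl2, 5 of 7 were called lower with a median of -1.96. Under scaling by the miRNA total or by the 100 most abundant miRNAs, 2 were called lower and 1, miR-15b, higher. miR-322 was 1151 and 1058 in NMG and 67.9, 124.8 and 161.2 (lowest, median and highest) in EMT-like areas (-3.17 ± 0.35, adjusted p = 5.1e-07). It sits at one end of a cluster at chrX:53048008-53054327 on the minus strand, in which 5 of 7 probes were called lower, in EMT-like as in carcinoma areas. miR-16 was 6555 and 6233 in NMG and 1263 to 2635 in EMT-like areas (-1.57 ± 0.49, adjusted p = 0.0208, lost without either NMG sample and under both of those scalings). miR-15b was not called, at 832 to 1935 against 1561 and 1042.

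miR-26 and miR-101, which both restrain the histone methyltransferase Ezh2, were called lower in 4 of 4 probes with a median of -2.06, and miR-26b had a log2 fold change of -2.52 ± 0.47 (adjusted p = 0.000285). Only miR-26b of these 4 kept its call under all scalings and without NMG replicate 2. In the family of miR-148 and miR-152, known for restraining the DNA methyltransferase Dnmt1, miR-148b (-2.09 ± 0.53) and miR-152 (-1.55 ± 0.56) were called and miR-148a (-2.26 ± 0.93, adjusted p = 0.0828) was not, and both calls were lost without NMG replicate 1. That of miR-152 was also lost without NMG replicate 2, without any 1 of several tumor samples and under scaling by the miRNA total. The miRNAs that lie inside the Hox clusters were also low. miR-196a was 363 and 283 in NMG and 18.2 to 56.1 in EMT-like areas (-3.38 ± 0.65, adjusted p = 0.000434), miR-10a was called at -2.25 ± 0.42 (adjusted p = 0.000285), and miR-10b was not called (-1.81 ± 0.83, adjusted p = 0.119).

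The Dlk1-Dio3 cluster, a long imprinted group of miRNAs on the distal part of chromosome 12, had shares of calls near those of all miRNAs. Of its 57 tested members 13 (22.8%) were called lower and 2 (3.51%) higher, against 21.3% and 4.73% of all, with a median of -0.86. miR-136 was 268 and 269 in NMG and 17.2, 26.3 and 48.1 (lowest, median and highest) in EMT-like areas (-3.23 ± 0.47, adjusted p = 2.1e-05). miR-154 was 610 and 407 against 120 to 270 (-1.48 ± 0.27, adjusted p = 0.000202). The growth-linked miR-17-92 group and its paralogues had 0 of 11 members called (limma) and a median of 0.00. Only 7 of the 11 were above the detection limit in any EMT-like or NMG sample. The median thus includes probes at the floor, such as miR-18a and miR-18b, and does not show an unchanged family. The let-7 family, which restrains Ras and Hmga2, had 1 of 9 called lower (let-7g, described below) and 1 higher (let-7e, 1.26, adjusted p = 0.00029), with a median of -0.19. Each is 11.1%, against 21.3% lower and 4.73% higher of all. The call of let-7e was lost under no scaling and under scaling by the 4 mRNA controls. Scaling by the miRNA total called 4 of the family higher and 0 lower. miR-21, an miRNA abundant in many tumors, was 2282 to 5734 in EMT-like areas and 2736 and 3823 in NMG and was not called (0.17 ± 0.73, adjusted p = 0.959).

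**Figure D3:**
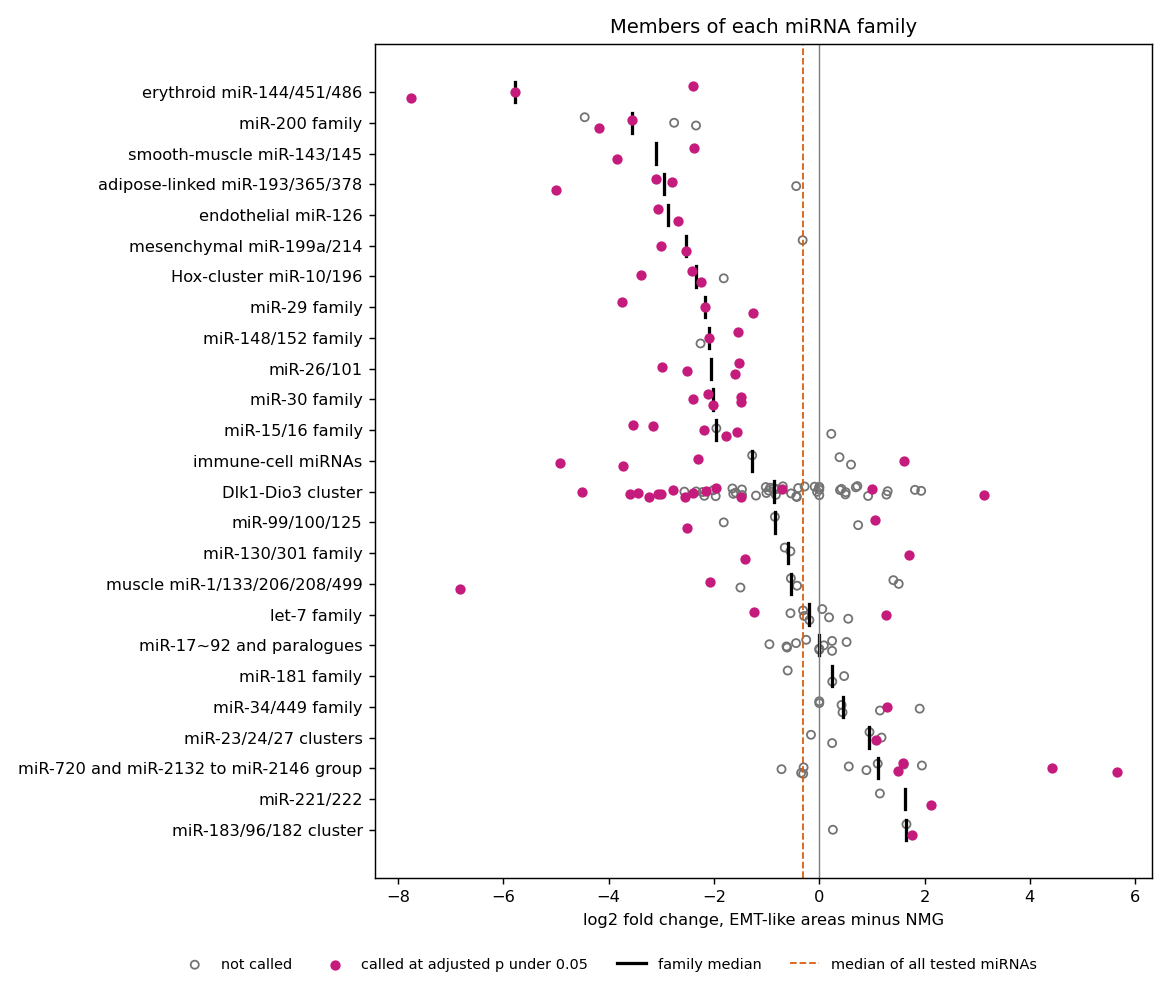
Log2 fold change of EMT-like areas minus NMG for the tested members of 25 families, with filled points for called members, open points for the rest, a black bar at each family's median and a dashed line at the median of all tested miRNAs, -0.30. The lines of the erythroid, miR-126, smooth-muscle, miR-29, miR-30 and miR-26 with miR-101 families hold only called, negative points. The miR-17-92 line runs from -0.95 to 0.52 with none called, and some of its points are probes at the floor.

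The gains were fewer, and fewer of them kept the call under every scaling. The other 4 scalings moved the median log2 fold change of all miRNAs by 0.30, 0.30, -0.71 and -0.88. The larger moves were downward, against gains, so the counts that follow depend on which scalings were run. Of the 26 miRNAs called higher, 6 kept the call under all 5 scalings run, against 81 of the 117 called lower. These 6 were miR-9, miR-140, miR-1196, miR-2133, miR-2137 and miR-337-5p, and the last lay under the detection limit in both NMG samples and in 4 of 7 EMT-like samples. The 81 also include miRNAs under the limit in all EMT-like and NMG samples, such as miR-137 and miR-375. Others of the 81, such as miR-208a, passed it in 1 NMG sample only. miR-9, known for targeting the E-cadherin gene Cdh1, was 14.01 and 3.71 in NMG, with 1 of them above the limit, and 426, 666 and 917 (lowest, median and highest) in EMT-like areas. No sample overlapped (6.34 ± 0.51, adjusted p = 3.53e-09), and carcinoma areas, at 585 to 1406, did not differ from EMT-like areas (adjusted p = 0.578). miR-140, from an intron of Wwp2 and best known in cartilage, was 105 and 114 in NMG and 1120, 1564 and 2917 in EMT-like areas (3.87 ± 0.90, adjusted p = 0.00273).

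miR-2133, miR-2137 and miR-1196 varied several-fold between samples. EMT-like replicate 1 was the highest in all 3, with 1165, 236 and 945, and EMT-like replicates 2, 6 and 7 were the lowest 3, in differing order. In NMG miR-2133 was 19.0 and 2.97, miR-2137 was 3.30 and 5.57, and miR-1196 was 22.7 and 20.4, so every EMT-like sample was higher. Their log2 fold changes were 5.66 ± 1.31, 4.43 ± 0.70 and 3.59 ± 0.50, and the call of miR-2133 was lost without NMG replicate 2. miR-2133 and miR-2137 belong to a group of 13 tested probes that were listed together. Of these 13, 4 were called higher and 0 lower in EMT-like areas. Whether the probes of this group count miRNAs or fragments of other RNAs was not tested. The gains of miR-2133 and miR-2137 are therefore gains of probe signal.

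Among miRNAs with better known roles, miR-221, which restrains the cell cycle inhibitor Cdkn1b, was 115, 215 and 441 (lowest, median and highest) in EMT-like areas and 44.1 and 54.6 in NMG (2.12 ± 0.57, adjusted p = 0.00794). Its neighbour miR-222 was 24.4 to 88.7 against 16.5 and 22.3 and was not called. miR-31, which restrains integrin and RhoA genes, was 67.9 to 145.7 against 23.9 and 24.5 (2.08 ± 0.38, adjusted p = 0.000274). miR-149 was 63.1 to 151 against 25.1 and 14.1 (2.44 ± 0.60, adjusted p = 0.0039). The EMT-like samples were above both NMG samples for each of these, and for miR-130b (92.8 to 143 against 45.3 and 26.7, 1.70 ± 0.32, adjusted p = 0.000354). The calls of miR-221, miR-31, miR-149 and miR-130b were lost under no scaling and under scaling by the 4 mRNA controls, those of miR-221 and miR-149 also without NMG replicate 2, and that of miR-221 without NMG replicate 1. miR-34c and miR-543, whose probe names state a carry-over from a positive control, were called higher (adjusted p = 0.00273 and 0.0276), and both calls were lost once that carry-over was subtracted.

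**Figure D4:**
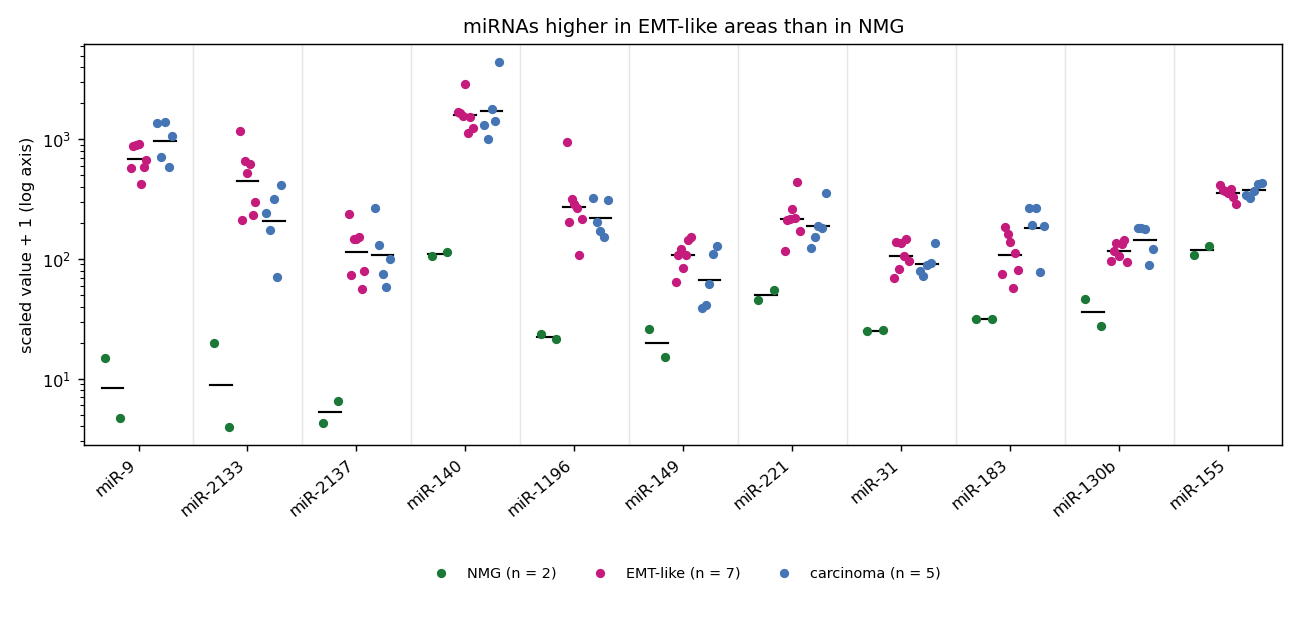
Scaled value + 1 on a log axis for 11 miRNAs called higher in EMT-like areas, with 1 point per sample for NMG (n = 2), EMT-like (n = 7) and carcinoma areas (n = 5) and a black line at the mean of the log values. Every EMT-like point lies above both NMG points, as with miR-9 at 426 to 917 against 14.01 and 3.71.

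Most of what EMT-like areas lost or gained was also called in carcinoma areas. Against the same 2 NMG samples, carcinoma areas had 32 miRNAs called higher (5.82%) and 134 lower (24.4%), of which 24 and 106 were also called in EMT-like areas. That leaves 13 called in EMT-like areas and not in carcinoma areas, 11 lower and 2 higher. The direct test between EMT-like and carcinoma areas called 1 miRNA of 550 (0.182%), with an unadjusted p under 0.05 for 77, and it called 0 of these 13 (limma), 6 of them with an unadjusted p under 0.05: miR-200a, miR-141, miR-203, miR-340-5p, miR-191 and miR-574-5p. No difference between the areas was thus shown for any of the 13. Without NMG replicate 1, 3 of the 13 kept their call against NMG (miR-107, miR-203 and miR-210), and without NMG replicate 2, 4 did (miR-151-5p, miR-191, miR-340-5p and miR-425). Under scaling by the miRNA total or by the 100 most abundant miRNAs, 7 of the 13 lost it: miR-200a, miR-107, miR-15a, miR-425, let-7g, miR-151-5p and miR-191. With the EMT-like samples of the lettered animals alone (n = 2), 1 of the 13, miR-425, kept its call against NMG. With those of the numbered animals alone (n = 5), all 13 did.

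Apart from the epithelial miRNAs described above, the lower ones were miR-196b, miR-340-5p, miR-107, miR-15a, miR-425, let-7g, miR-151-5p and miR-191. miR-191 was 299 and 258 in NMG, 106, 143 and 179 (lowest, median and highest) in EMT-like areas and 179 to 322 in carcinoma areas. The EMT-like samples lay below both NMG samples, whereas the carcinoma samples overlapped with them. The log2 fold change against NMG was -0.97 ± 0.26 in EMT-like areas (adjusted p = 0.00728) and -0.29 ± 0.27 in carcinoma areas (adjusted p = 0.487), and between the areas it was -0.68 ± 0.19 (adjusted p = 0.0877), lower in the EMT-like area of 4 of 4 sources. miR-425, cut from the same intron of Dalrd3, was 16.3 to 34.0 in EMT-like areas, 22.02 to 48.8 in carcinoma areas and 74.2 and 43.4 in NMG (-1.34 ± 0.37 against NMG, adjusted p = 0.00991).

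miR-340-5p was 205 and 160 in NMG and, in EMT-like areas, 19.0, 53.0 and 92.1 (lowest, median and highest), against 52.5 to 156 in carcinoma areas. EMT-like values were all below NMG (-1.97 ± 0.47, adjusted p = 0.00331), while the direct difference of -1.13 ± 0.35 had an adjusted p of 0.114. miR-196b averaged 187.9 ± 25.7 (SD, n = 2) in NMG and was 16.3 to 86.1 in EMT-like areas and 18.7 to 94.3 in carcinoma areas. Its log2 fold changes against NMG were -2.41 ± 0.64 (adjusted p = 0.00732) and -1.61 ± 0.67 (adjusted p = 0.078), so the 2 areas fell on either side of the threshold with values that overlap.

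Another 4 also had lower means in carcinoma areas than in NMG, with every carcinoma sample below both NMG samples for miR-107, miR-15a and let-7g. miR-107, from an intron of a pantothenate kinase gene, was -1.78 ± 0.52 in EMT-like and -1.22 ± 0.54 in carcinoma areas, each against NMG. miR-15a was -1.77 ± 0.57 and -1.48 ± 0.60. let-7g was -1.25 ± 0.37 and -0.73 ± 0.38, and miR-151-5p, from an intron of Ptk2, was -1.07 ± 0.32 and -0.71 ± 0.33. By seed, AACACUG (miR-200a and miR-141) was the one group with 2 of 2 called in EMT-like areas and 0 in carcinoma areas, and AGGUAGU (miR-196a and miR-196b) and GCAGCAU (miR-103 and miR-107) had 2 of 2 and 1 of 2.

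The higher ones were miR-210 and miR-574-5p. miR-210, which is induced by hypoxia through Hif1a, was 125.9, 152.1 and 201.9 (lowest, median and highest) in EMT-like areas, 84.9 and 75.0 in NMG and 93.3 to 196.3 in carcinoma areas (0.98 ± 0.27 against NMG, adjusted p = 0.00991). Its direction turned under no scaling (-0.19) and under scaling by the 4 mRNA controls (-0.04). miR-574-5p was 12.7 to 37.3 in EMT-like areas, above the limit in all 7, and under the limit in both NMG samples and all 5 carcinoma samples. It was at least 4.33-fold higher than in NMG and at least 1.12-fold higher than in carcinoma areas, with adjusted p of 0.0125 and 0.0877.

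**Figure D5:**
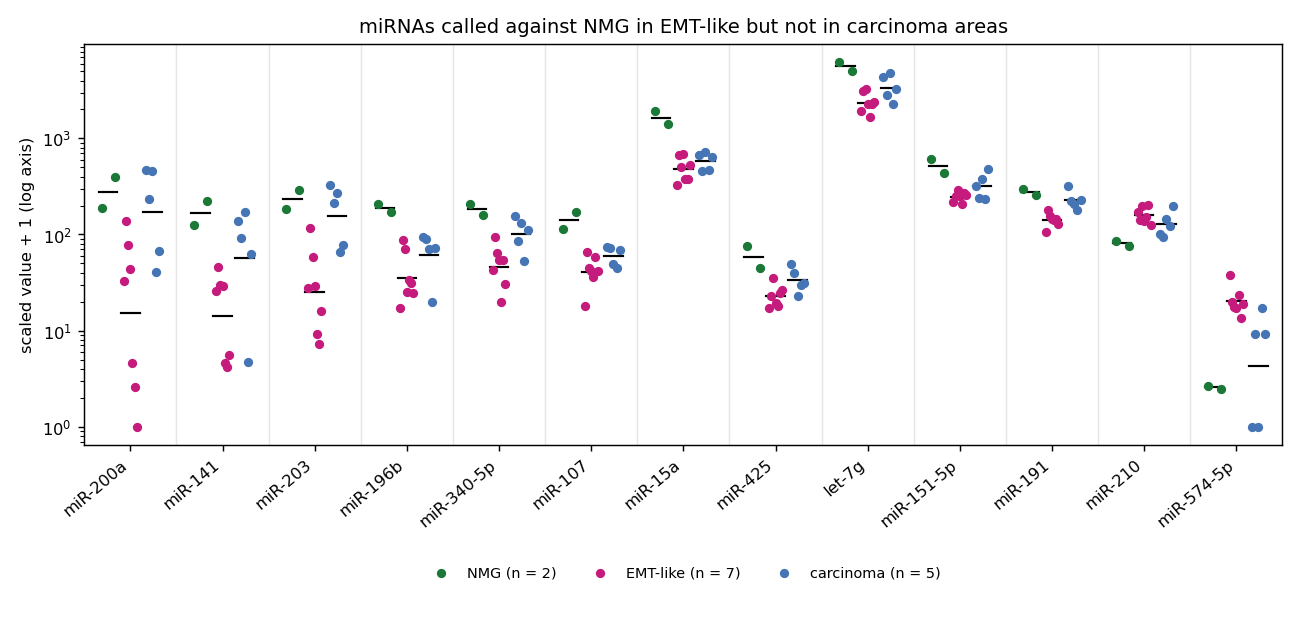
Scaled value + 1 on a log axis for the 13 miRNAs called against NMG in EMT-like but not in carcinoma areas, with 1 point per sample for NMG (n = 2), EMT-like (n = 7) and carcinoma areas (n = 5) and a black line at the mean of the log values. EMT-like points never overlap with NMG, yet they overlap with carcinoma points in most miRNAs, as with miR-15a at 325 to 690 against 458 to 729.

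In the other direction, 36 miRNAs were called in carcinoma areas and not in EMT-like areas, 8 higher and 28 lower, and for 23 of them all carcinoma samples were under their detection limits, which ran from 11.1 to 24.6 on the scaled scale. One of the 36, miR-323-3p of the Dlk1-Dio3 cluster, was the miRNA called between the areas. It was 28.7, 12.0, 8.73, 8.66, 8.15, 14.3 and 11.3 in EMT-like replicates 1 to 7, 0 to 3.54 in carcinoma areas and 7.01 and 4.83 in NMG. All EMT-like samples exceeded all carcinoma samples, with a difference of 2.82 ± 0.48 (adjusted p = 0.00415), but only 3 of 7 EMT-like samples and no carcinoma sample passed the detection limit, so the size of the difference rests on values within the background. It was 0.78 (adjusted p = 0.864) with the detection limit subtracted as a higher background and 1.01 (adjusted p = 0.0643) with a pseudocount of 10, and it was called in the other 26 of the 28 alternatives. Against NMG it was not called in EMT-like areas (0.93 ± 0.65, adjusted p = 0.361) and was called lower in carcinoma areas (-1.89 ± 0.68, adjusted p = 0.04).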

How the data were processed

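miRNAs were measured with the nCounter mouse miRNA assay, which counts barcoded probes without amplification. The values the authors deposited are barcode counts less the lane's average over 6 negative controls, so 34.8% of the mouse values were below 0; they were not scaled between lanes, and how the authors scaled them is not given in the sources used here. Values were floored at 0, scaled by trimmed mean of M-values (trims of 30% and 5%) over 599 miRNA probes and tested as log2(scaled value + 1) with limma 3.58.1 (R 4.3.3; lmFit, eBayes with trend) in 1 fit of 24 samples in 7 conditions, with Benjamini-Hochberg adjustment over 583 probes, viral probes included. The detection limit of a lane was 2 SD above the average of its negative controls. Where all samples of a group were under it, a fold was given as a lower bound, the mean of the other group against those limits, both on the log2(value + 1) scale. The animal was not used as a block because NMG shares no animal with the tumors, and deviations of samples from the same animals correlated between -0.296 and 0.424 (183 probes), not above 0.1 in every pair.

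Named miRNAs were up to 4 members of highest mean per family (all where a family has 5 or fewer), the 5 largest changes in each direction without overlap, and every miRNA called in EMT-like areas only or between areas; of those and of 4 named after their values were seen (miR-103, miR-223, miR-337-5p and let-7e), the text names 80. Members and lists were chosen with earlier results of these data known. miRNAs named to show a limit after their values were seen, such as miR-142-5p and miR-208a, are outside these 80. The procedure was run on simulated data with known changes, drawn with equal odds in both directions. These data lean to lower values, so that run does not vouch for the calls. Alternatives were 4 scalings, 2 filters, a higher background (the detection limit subtracted, floor of 1), another pseudocount, fewer groups, an animal block, each series of animals, subtraction of the positive control, and leaving out each sample. Python 3.11.15, numpy 2.4.6, pandas 2.3.3 and matplotlib 3.10.9 were used for tables and figures. Whether samples of a group were handled separately beyond the animal is not stated, so p-values measure the spread between these samples.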

Additional observations from a re-analysis of the deposited data

Results flagged for a closer look

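In 8 of the 80 named miRNAs, 1 EMT-like sample lay apart from the other 6 by more than 0.568 of the group's range. Gap and range were taken on the log2(scaled value + 1) scale, whereas the values below are scaled values. Chance does this in about 1 in 20 groups. Replicate 1, whose label names 3 animals, was the lowest for miR-126-3p (1190), miR-365 (51.6), miR-15b (832), miR-16 (1263) and miR-103 (139.5). Replicate 2 was the highest for miR-199a-3p (2026) and for miR-193 (2.002, under the detection limit). Replicate 4 was the lowest for miR-133a (4.81). miR-323-3p differed between EMT-like and carcinoma areas by 2.82 on the log2 scale, in the direct test of that difference, with every carcinoma value and 4 of 7 EMT-like values under the detection limit. The difference was 0.78 (adjusted p = 0.864) with the higher background and 1.01 (adjusted p = 0.0643) with a pseudocount of 10.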

How the results depend on the processing

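Against 26 miRNAs called higher, 117 lower, 13 in EMT-like areas only and 1 between the areas, the counts depended on the scaling. Higher calls were 48 under scaling by the 100 most abundant miRNAs, 49 by the miRNA total, 6 by the 4 mRNA controls, 10 without scaling and 175 with the higher background. Lower calls were 87, 88, 160, 193 and 146 in the same order. Calls in EMT-like areas only were 20, 19, 20, 12 and 38, and 26 with a pseudocount of 10. Calls between the areas were 2, 1, 1, 7 and 7, then 0 with a pseudocount of 10, and 7 under either filter (values of at least 20 in 2 samples, or above the limit in at least 2 of the 14 samples, the latter chosen after seeing the data, as was fitting mouse probes alone, which gave 29 higher and 117 lower). Scaling moved the median log2 fold change by 0.30, 0.30, -0.71 and -0.88. With the animal as a random replicate block (correlation -0.00296), 26 were called higher, 116 lower, 13 in EMT-like areas only and 1 between the areas, and 1 call against NMG was lost and 0 gained.

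EMT-like samples of the lettered animals alone (n = 2) gave 18 higher, 59 lower, 3 in EMT-like areas only and 6 between, and those of the numbered animals (n = 5) gave 26, 123, 24 and 12. Leaving out each sample gave 15 to 28 higher, 76 to 129 lower, 10 to 24 in EMT-like areas only and 1 to 19 between. Without NMG replicate 1, 19 were higher and 76 lower, and without NMG replicate 2, 15 and 83, the lone sample being assumed to vary like the other groups. Calls between the areas were 19 without EMT-like replicate 2, 8 without EMT-like replicate 3, 13 without carcinoma replicate 4 and 4 without carcinoma replicate 5. Calls in EMT-like areas only were 24 without EMT-like replicate 2, 20 without EMT-like replicate 3 and 21, 20 and 20 without carcinoma replicates 1, 3 and 5. The cause was not tested.

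Of 66 named miRNAs with a call, 28 kept it in each of the 28 alternatives in which they were tested. Log2 fold changes that turned sign were, without scaling, those of miR-210 (-0.19), miR-543 (-0.16), miR-15b (-0.95), miR-21 (-1.01) and miR-323-3p (-0.13), and by the 4 mRNA controls those of miR-210 (-0.04), miR-543 (-0.0089), miR-15b (-0.80) and miR-21 (-0.86). miR-193b turned to 0.18 and miR-214 to 0.29 under the 100 most abundant miRNAs, 0.21 and 0.32 under the total and 0.0473 with lettered animals, where miR-15b was -0.0082. Leaving out each sample gave -3.73 to 0.73 for miR-133a, -0.0687 to 0.41 for miR-21 and -0.0636 to 0.52 for miR-15b. With 2 NMG samples, the NMG level rests on a pair of lanes. The spread behind a call came from all 24 samples. A call therefore does not require that the 2 NMG lanes agree, as with miR-1 (834 and 30.8). Values under the detection limit have no order.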
